A study of Sus scrofa with 40 samples.

Results

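ECHDC1 encodes ethylmalonyl-CoA decarboxylase, and its transcript was followed here in liver and backfat of pigs from 2 lines on 2 diets. It was taken by its symbol in the platform annotation, which gives that symbol to 1 probe set of the 23999 on the array that are not controls. The gene was chosen by its measured diet differences, which were below 0 under feed restriction in both tissues, so these differences are given as a description, with no test.

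The pigs were 20 prepubertal Yorkshire gilts, 6 months old. They came from lines with low or high residual feed intake (RFI), which is feed eaten beyond the amount predicted from maintenance and growth, so the low RFI line is the feed-efficient one. Of the 10 gilts in each line, 5 ate ad libitum and 5 received feed at 80% of maintenance for 8 days. Liver and the middle layer of backfat over rib 10 were measured, which makes 8 groups of 5 arrays and 40 arrays in all. The labels of nearly all samples describe the gilts as heterozygous for a variant of MC4R, the melanocortin receptor that acts in appetite control, and that selection is shared by the groups compared. The 5 numbered arrays of a group are separate samples in the labels, which do not tie a liver array to a backfat array of the same gilt, and p-values measure the spread between these arrays. Both tissues were taken whole, so fewer cells of a type and less RNA per cell cannot be told apart.

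ECHDC1 is a cytosolic enzyme of the enoyl-CoA hydratase and isomerase (crotonase) family and is known as a metabolite repair, or proofreading, enzyme. Acetyl-CoA carboxylase, which makes malonyl-CoA for fatty acid synthesis, also carboxylates butyryl-CoA at a low rate to ethylmalonyl-CoA, and fatty acid synthase can build such units into branched fatty acids. ECHDC1 decarboxylates ethylmalonyl-CoA, and more slowly methylmalonyl-CoA, and so removes these side products. In pigs backfat is the main site of fatty acid synthesis, and the liver contributes less.

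The values are linear intensities that carry a scaling per array: with the top and bottom 2% of probe sets set aside, array means lay between 500.09 and 500.15. Array medians ranged from 127 to 190.1. Differences are on the log2 scale, so that 1 unit is a doubling. Backfat carried its fat cell transcripts, with a mean log2 intensity over 7 adipocyte markers of 12.8 ± 0.205 (SD, n = 10) in ad libitum and 12.7 ± 0.248 in restricted pigs, against 6.39 and 6.34 in liver. Over 13 hepatocyte markers the liver means were 14.6 ± 0.125 and 14.7 ± 0.167.

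ECHDC1 was a bright probe set in every group and was highest in backfat of ad libitum pigs. In high RFI backfat with feed ad libitum the 5 intensities were 6716, 5660.32, 2107, 5091 and 6512 (replicates 1 to 5). In low RFI backfat with feed ad libitum they were 3179, 6562, 3759.99, 5962 and 4243. The lines overlapped, and apart from the array at 2107 none of these fell below 3179. In high RFI backfat under restriction the values were 877, 1058, 809.7, 976 and 732. In low RFI backfat under restriction they were 688, 1197, 838, 824 and 724. The restricted arrays of the lines overlapped, and none reached the lowest ad libitum array.

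The diets lay closer together in liver. The high RFI liver arrays with feed ad libitum read 3237, 2309, 1952, 2883 and 2000.45. The low RFI liver arrays with feed ad libitum read 2098, 2326, 2599, 2682 and 3110.37. These groups also overlapped each other. High RFI livers under restriction had intensities of 1977, 1098, 1645, 1482 and 1077. Low RFI livers under restriction had 697, 1146, 1208, 1085 and 832. Restricted livers of the high RFI line therefore reached further up than those of the low RFI line, and the brightest of them, at 1977, lay above the dimmest ad libitum liver, at 1952.

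**Figure D1:**
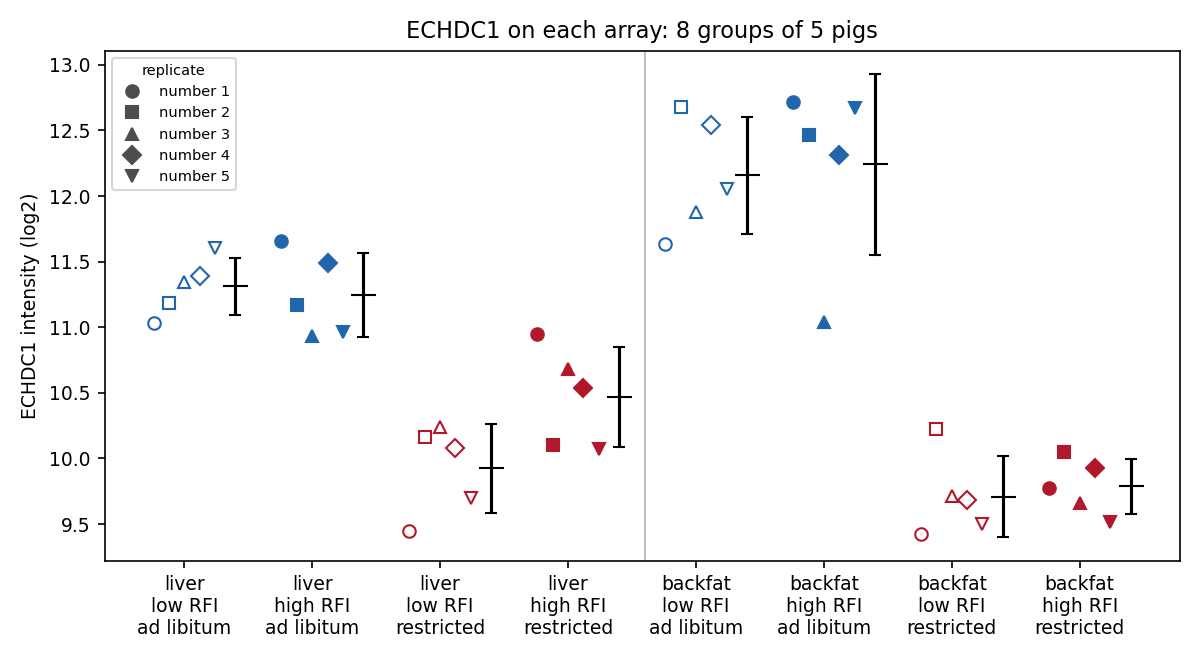
ECHDC1 log2 intensity on each of the 40 arrays by group, with symbols for replicate number, filled symbols for high RFI, blue for ad libitum and red for restricted, and a bar for the group mean ± SD (n = 5). Restricted backfat arrays sit between 688 and 1197 in linear intensity, below all ad libitum backfat arrays, whereas in liver the diets touch at 1952 and 1977.

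The ordering of the 8 group means ran from ad libitum backfat through ad libitum liver and restricted liver to restricted backfat. Mean log2 intensity was 12.24 ± 0.69 (SD, n = 5) in high RFI and 12.16 ± 0.44 in low RFI backfat with feed ad libitum. It was 11.31 ± 0.21 in low RFI and 11.24 ± 0.32 in high RFI liver with feed ad libitum. It was 10.47 ± 0.38 in high RFI and 9.93 ± 0.34 in low RFI liver under restriction. The lowest means were 9.79 ± 0.21 in high RFI and 9.71 ± 0.31 in low RFI backfat under restriction. The only neighbours in this order whose ranges did not overlap were low RFI backfat and low RFI liver, both ad libitum, which lay 0.85 apart. Within its own array ECHDC1 stood at the 93.0 to 98.2 percentile of probe sets in ad libitum backfat and at the 78.0 to 86.8 percentile in restricted backfat. In liver it stood at the 92.1 to 95.2 percentile with feed ad libitum and at the 81.1 to 92.4 percentile under restriction.

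Restriction separated the ECHDC1 levels most in backfat. Averaged over both lines, the restricted minus ad libitum difference was -2.45 (SE 0.184), a level 5.47-fold lower, with 10 arrays on each diet. The difference was -2.45 (SE 0.26) in the low and -2.45 (SE 0.26) in the high RFI line. Among the 15498 probe sets tested in backfat, 10.7% were lower and 15.1% higher under restriction (limma, adjusted p below 0.05), the median difference was 0.08, and 1.01% had every restricted array below every ad libitum array. By size ECHDC1 was the 13th lowest of these probe sets. The named probe sets next to it were one for ACSS2, cytosolic acetyl-CoA synthetase, at -2.49 and one for AKR1CL1 at -2.30.

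In liver the difference was -1.08 (SE 0.136), a level 2.12-fold lower. It was -1.38 (SE 0.192), or 2.61-fold, in the low RFI line and -0.78 (SE 0.192), or 1.71-fold, in the high RFI line. Far fewer liver probe sets passed the test, with 0.542% of 15677 lower and 0.376% higher, and the median difference was 0.02. ECHDC1 was the 40th lowest by size, between named probe sets for TSC22D3, a glucocorticoid-induced leucine zipper protein, at -1.09 and AHSP, the alpha haemoglobin stabilising protein, at -1.08. In 0.0255% of the liver probe sets every restricted array lay below every ad libitum array, and ECHDC1 was not among them. The diet difference in backfat minus that in liver was -1.37 (SE 0.236), given as a value because the same contrasts chose the gene.

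Measures of RNA quality and tissue composition are given beside this difference, and only some of them moved with diet in backfat. The log2 ratio of 3' to 5' GAPDH control probe sets, which rises as RNA is degraded or copied incompletely, was 1.88 ± 0.521 (SD, n = 10) in restricted and 1.19 ± 0.365 in ad libitum backfat, and 1.14 ± 0.268 and 0.996 ± 0.219 in liver. With this ratio and that of actin as covariates the ECHDC1 difference was -2.21 in backfat and -1.14 in liver. The actin ratio differed between arrays numbered 1 and 2 and those numbered 3 to 5 (2.27 ± 0.553 and 1.56 ± 0.163 in backfat, 2.25 ± 0.28 and 1.32 ± 0.194 in liver). Within the arrays numbered 1 and 2 the ECHDC1 diet difference was -2.50 in backfat and -1.10 in liver, and within those numbered 3 to 5 it was -2.41 and -1.07. The SEs of these differences were 0.258 and 0.231 in backfat and 0.226 and 0.15 in liver, in the same order of sets. Every group holds an array of each number, so the sets are balanced over diet. Their likeness is a description and does not test RNA quality.

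Of the 7 adipocyte markers in backfat, 1 was higher and 1 lower under restriction. Of all backfat probe sets 15.1% were higher and 10.7% lower, and the marker counts cannot be told from these shares. The summed intensity of the adipocyte markers was 64078 to 83496 in restricted against 63509 to 94149 in ad libitum backfat. The mean over the 13 hepatocyte markers was 6.10 to 11.99 in restricted and 5.37 to 7.07 in ad libitum backfat, with 2 of 5 tested markers higher and the highest value on the low RFI restricted array numbered 5. Their summed intensity was 7511 to 83947 and 4540.18 to 7812. Skeletal muscle markers spread widely under both diets, at 4.76 to 13.2 and 4.73 to 13.1. In backfat the macrophage, endothelial and erythrocyte marker means were 7.16, 10.4 and 8.33 under restriction and 6.97, 10.2 and 8.59 with feed ad libitum. In liver they were 8.72, 9.28 and 9.39 under restriction and 9.25, 9.25 and 9.74 with feed ad libitum. These means were not tested. With the hepatocyte and muscle means as covariates the ECHDC1 difference in backfat was -2.41.

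The line contrasts were independent of the choice of the gene and could be tested. In backfat ECHDC1 did not differ detectably between lines, with a low minus high RFI difference of -0.08 (SE 0.184, 95% interval -0.46 to 0.30, limma adjusted p = 0.965). The value was -0.08 (interval -0.63 to 0.46) with feed ad libitum and -0.08 (interval -0.62 to 0.47) under restriction. Both bounds of the pooled interval were nearer to 0 than the diet difference of -2.45. Across backfat probe sets 0.00645% were higher and 0.0129% lower in the low RFI line. Without the high RFI ad libitum array at 2107 the line difference in backfat was -0.23 (limma adjusted p = 0.608). The 9 skeletal muscle markers had a median line difference of 2.20 in backfat, higher in the low RFI line, although none passed the test; with the hepatocyte and muscle means as covariates the ECHDC1 line difference was -0.09.

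In liver the low minus high RFI difference was -0.24 (SE 0.136, 95% interval -0.52 to 0.04, limma adjusted p = 0.827), in a comparison where 0.0128% of probe sets were higher and 0.0319% lower. It was 0.07 (interval -0.33 to 0.46, limma adjusted p = 0.992) with feed ad libitum. Under restriction it was -0.54 (SE 0.192, interval -0.94 to -0.14), which had an unadjusted p = 0.0101 in limma but an adjusted p = 0.959 over all probe sets, of which 0.00638% were higher and 0.0128% lower. The restricted livers of the lines overlapped, since 2 of the 5 high RFI values (1077 and 1098) lay below the highest low RFI value (1208).

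Whether the diet difference itself depended on line was tested as an interaction. In backfat the diet difference of the low line minus that of the high line was 0.01 (SE 0.368, 95% interval -0.76 to 0.77, limma adjusted p = 0.9999). In liver it was -0.61 (SE 0.271, interval -1.17 to -0.04), with an unadjusted p = 0.0359 and an adjusted p = 0.999 in limma, so the larger liver difference of the low line did not pass over all probe sets. No probe set passed for this interaction in either tissue in limma (0%); 244 backfat and 525 liver probe sets (1.57% and 3.35%) had an unadjusted p below 0.05. Across the alternatives other than leaving out arrays, the liver interaction lay between -0.74 and -0.41 and did not pass in any.

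The mean ECHDC1 level was higher in backfat than in liver when feed was ad libitum, and lower in backfat than in liver when feed was restricted. These differences within a diet share the group means whose diet differences chose the gene, so they are given as a description, with no test. With feed ad libitum the backfat minus liver difference was 0.92 (SE 0.167), or 1.89-fold. Under restriction it was -0.45 (SE 0.167), or 1.36-fold lower in backfat. For all 14001 probe sets compared between tissues the median difference was 0.25 and 0.27, so relative to it ECHDC1 stood at 0.68 and -0.72. Backfat and liver ranges overlapped under both diets, by the backfat arrays at 2107 and 3179 with feed ad libitum and by most arrays under restriction. By line, the ad libitum difference between tissues was 0.85 in the low and 0.996 in the high line, and under restriction it was -0.22 in the low and -0.68 in the high line. In the arrays numbered 1 and 2 the restricted difference was -0.29.

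Averaged over both diets, a contrast that does not use the diet differences, backfat minus liver was 0.24 (SE 0.118, 95% interval -0.002 to 0.47, limma adjusted p = 0.0654). It did not pass the test, in a comparison where 51.4% of probe sets were higher and 27.4% lower in backfat and the median was 0.25. It passed without any of 4 arrays, at 0.31 (limma adjusted p = 0.00442) without the high RFI ad libitum backfat array at 2107, 0.27 (limma adjusted p = 0.0362) without the low RFI ad libitum backfat array numbered 1, 0.27 (limma adjusted p = 0.0387) without the high RFI restricted liver array numbered 1 and 0.26 (limma adjusted p = 0.0433) without the high RFI ad libitum liver array numbered 1. Arrays of different tissues were scaled separately to the same trimmed mean, so these levels are relative to the other transcripts of the same tissue.

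**Figure D2:**
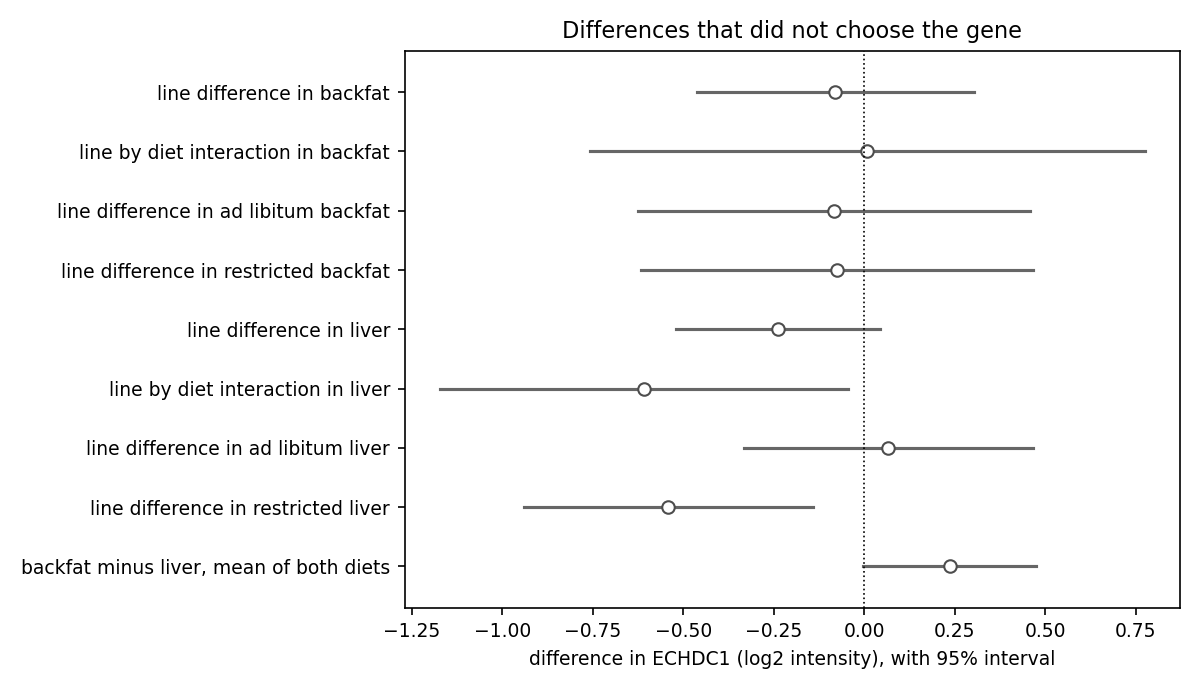
Differences in ECHDC1 log2 intensity between lines (low minus high RFI), their interaction with diet, and between tissues (backfat minus liver, mean of both diets), with 95% intervals; an open point had a limma adjusted p of 0.05 or more. All points are open: the line and interaction differences lie between -0.61 and 0.07 and the tissue difference at 0.24.

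The genes around ECHDC1 in metabolism were compared by 6 lists, each gene by its brightest probe set in the tissue. Of 56 list genes tested in backfat, 30 were lower and 3 higher under restriction, and of 55 in liver 4 were lower and 0 higher. Of all probe sets tested, 10.7% were lower and 15.1% higher in backfat, and 0.542% lower and 0.376% higher in liver. These shares apply to the counts of each list below, and they count every probe set, whereas each list gene counts once. In liver 16 of the 55 had an unadjusted p below 0.05 in limma, as did 12.4% of all liver probe sets tested. For line, none of these genes passed in either tissue in limma, with 5 in backfat and 4 in liver at an unadjusted p below 0.05, against 7.78% and 6.53% of all probe sets. For the interaction none passed either, with 1 in each tissue at an unadjusted p below 0.05, against 1.57% and 3.35%. ECHDC1 itself is in no list.

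Fatty acid synthesis and its substrate supply, the pathway that makes and uses the malonyl-CoA next to which ethylmalonyl-CoA arises, had 9 of 12 genes lower and 0 higher in backfat, with a median difference of -1.51. ME1, the malic enzyme that supplies NADPH, was 1359.99 to 3676 in restricted and 6164 to 20921 in ad libitum backfat and fell by 2.65 (SE 0.215, limma adjusted p = 1.94e-07). SLC25A1, the mitochondrial citrate carrier, fell by 2.27 (limma adjusted p = 4.5e-07). FASN, fatty acid synthase, was 824 to 7468 in restricted and 12721 to 22763 in ad libitum backfat and fell by 2.76 (SE 0.267, limma adjusted p = 9.13e-07). PGD, which makes NADPH in the pentose phosphate pathway, fell by 1.39 (limma adjusted p = 4.37e-06). The diets did not overlap for any of these genes, nor for some others of this list. Over all backfat probe sets, 1.01% had every restricted array below every ad libitum array. ACACA, the acetyl-CoA carboxylase that yields ethylmalonyl-CoA as a side product, fell by 1.92 (SE 0.292, limma adjusted p = 9.84e-05), from 173 to 704 with feed ad libitum to 42.4 to 179.96 under restriction. SCD, the stearoyl-CoA desaturase, fell by 1.63 (limma adjusted p = 0.00227). The ECHDC1 difference of -2.45 lay between those of FASN and ME1 on one side and SLC25A1 on the other. This order is a description, because ECHDC1 was chosen by its diet differences.

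In liver 4 of the 12 genes were lower and 0 higher, with a median of -0.51. ACSS2 fell by 1.41 (SE 0.23, limma adjusted p = 0.00466). ELOVL6, which elongates palmitate, fell by 1.46 (SE 0.301, limma adjusted p = 0.0227). FASN fell by 1.25 (SE 0.28, limma adjusted p = 0.0343), and ME1 fell by 0.91 (SE 0.214, limma adjusted p = 0.0422). By its brightest probe set, no gene of the other lists passed in liver. SLC25A1 and PGD had -0.16 (limma adjusted p = 0.735) and -0.20 (limma adjusted p = 0.607) there. ACACA was dim in liver, at 9.63 to 207, and had -1.70 (SE 0.599, limma adjusted p = 0.205). The liver count was not stable: it was 2 or fewer when any of 10 arrays was left out, 2 without an intensity trend in the fit and 0 in the arrays numbered 1 and 2.

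Probe sets of a gene did not always agree in size. For ELOVL6 the brightest probe set in backfat had -0.87, while 3 others had -2.27, -2.25 and -2.09. For ACSS2 in backfat the brightest had -1.95 and the other -2.49. In liver only the brightest of 4 probe sets for ELOVL6 passed the test, while the others had -1.04, -1.72 and -1.14 (limma adjusted p = 0.118, 0.106 and 0.082). Likewise only the brightest of 3 for FASN passed in liver, while the others had -0.95 each (limma adjusted p = 0.184 and 0.124). With the probe set of smallest p for each gene, 32 list genes were lower in backfat, the brightest giving 30. ECHDC1 has no second probe set against which its values could be set.

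The propionyl, methylmalonyl and malonyl CoA handling list holds the enzymes of the acyl-CoA that ECHDC1 also accepts. In backfat 3 of 5 genes were lower, with a median of -0.44. MUT, the methylmalonyl-CoA mutase, fell by 1.003 (SE 0.193, limma adjusted p = 0.000782), and PCCA, a subunit of propionyl-CoA carboxylase, fell by 0.65 (SE 0.113, limma adjusted p = 0.00032). MMADHC, which handles the cobalamin cofactor of the mutase, fell by 0.41 (SE 0.0918, limma adjusted p = 0.00254). ACSS3, a propionyl-CoA synthetase, had -0.44 (limma adjusted p = 0.0776) by its brightest probe set, while its others had -0.32 (limma adjusted p = 0.0442) and 0.71 (limma adjusted p = 0.0832). In liver none of the 5 passed, the median was -0.06, and MUT had -0.14 (limma adjusted p = 0.8). The ECHDC1 liver value of -1.08 lay further below 0 than that of each of these 5, of which ACSS3 had the lowest, at -0.33. This too is a description, because ECHDC1 was chosen by its diet differences and the 5 genes were not.

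Among the relatives of ECHDC1 in the enoyl-CoA hydratase and isomerase family, 6 of 9 genes were lower and 1 higher in backfat, with a median of -0.52. ECI1, a mitochondrial enoyl-CoA isomerase of beta-oxidation, was 2150.1 to 3176 in restricted and 4286 to 8691 in ad libitum backfat and fell by 1.38 (SE 0.109, limma adjusted p = 1.5e-07). ECHDC2, the relative nearest in name, fell by 0.96 (SE 0.158, limma adjusted p = 0.000192), and ECHS1, the short-chain enoyl-CoA hydratase of mitochondria, fell by 0.94 (SE 0.132, limma adjusted p = 4.18e-05). HADHA, a subunit of the trifunctional protein of beta-oxidation, rose by 0.39 (SE 0.129, limma adjusted p = 0.0289). In liver 0 of 9 passed, the median was -0.16, ECI1 had -0.37 (limma adjusted p = 0.0801) and ECHDC2 had -0.16 (limma adjusted p = 0.552). Across the 9 relatives the lowest value was -1.38 in backfat and -0.37 in liver, both nearer to 0 than the ECHDC1 differences of -2.45 and -1.08. Since ECHDC1 was chosen by these differences, this order is a description and does not set it apart from its relatives.

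Of 7 other metabolite repair enzymes 5 were lower and 0 higher in backfat, with a median of -0.51. NIT1, which removes deaminated glutathione, fell by 1.10 (SE 0.116, limma adjusted p = 2.7e-06), and NAXE, the epimerase that repairs hydrated NADH and NADPH, fell by 0.77 (SE 0.112, limma adjusted p = 6.28e-05). GLO1 and HAGH, the glyoxalases that remove methylglyoxal, fell by 0.89 and 0.51. None of the 7 passed in liver, where the median was -0.20 and NIT1 had -0.29 (SE 0.0777, limma adjusted p = 0.0835).

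The list of regulators of lipogenic genes had 0 of 8 past the test in backfat and 0 of 7 in liver, with medians of 0.01 and -0.04. SREBF1, a transcription factor of lipogenic genes, was dim in backfat, at 40.3 to 252, and had -0.07 (limma adjusted p = 0.883) there and 0.29 (limma adjusted p = 0.608) in liver. PPARG, the nuclear receptor of fat cell differentiation, had -0.34 in backfat (limma adjusted p = 0.0682). INSIG1, which retains SREBP in the endoplasmic reticulum, had -0.54 in backfat (limma adjusted p = 0.0833) and -0.42 in liver (limma adjusted p = 0.4). Its other probe set in backfat was lower past the test, at -1.10 (limma adjusted p = 0.00532), so the count of 0 holds for the brightest probe sets.

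Of 15 beta-oxidation genes 7 were lower and 2 higher in backfat, with a median of -0.23. Of all backfat probe sets 10.7% were lower and 15.1% higher, so the 2 of 15 higher lay near that share. ACADL, the long-chain acyl-CoA dehydrogenase, fell by 0.88 (SE 0.0982, limma adjusted p = 4.61e-06) and ETFA, an electron transfer flavoprotein subunit, fell by 0.79 (SE 0.101, limma adjusted p = 1.7e-05). CPT1B and CPT1A, the carnitine palmitoyltransferases at the entry of the pathway, rose by 0.97 (limma adjusted p = 0.0313) and 0.43 (limma adjusted p = 0.0379). In liver none of 15 passed, the median was -0.11 and DECR1, a dienoyl-CoA reductase, had -0.43 (limma adjusted p = 0.0924). The 3 list genes higher in backfat were HADHA, CPT1B and CPT1A; this count was 0 with the control ratios as covariates, 0 in the arrays numbered 1 and 2, 0 without the low RFI restricted array numbered 5, and 1 without any of 7 other arrays.

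**Figure D3:**
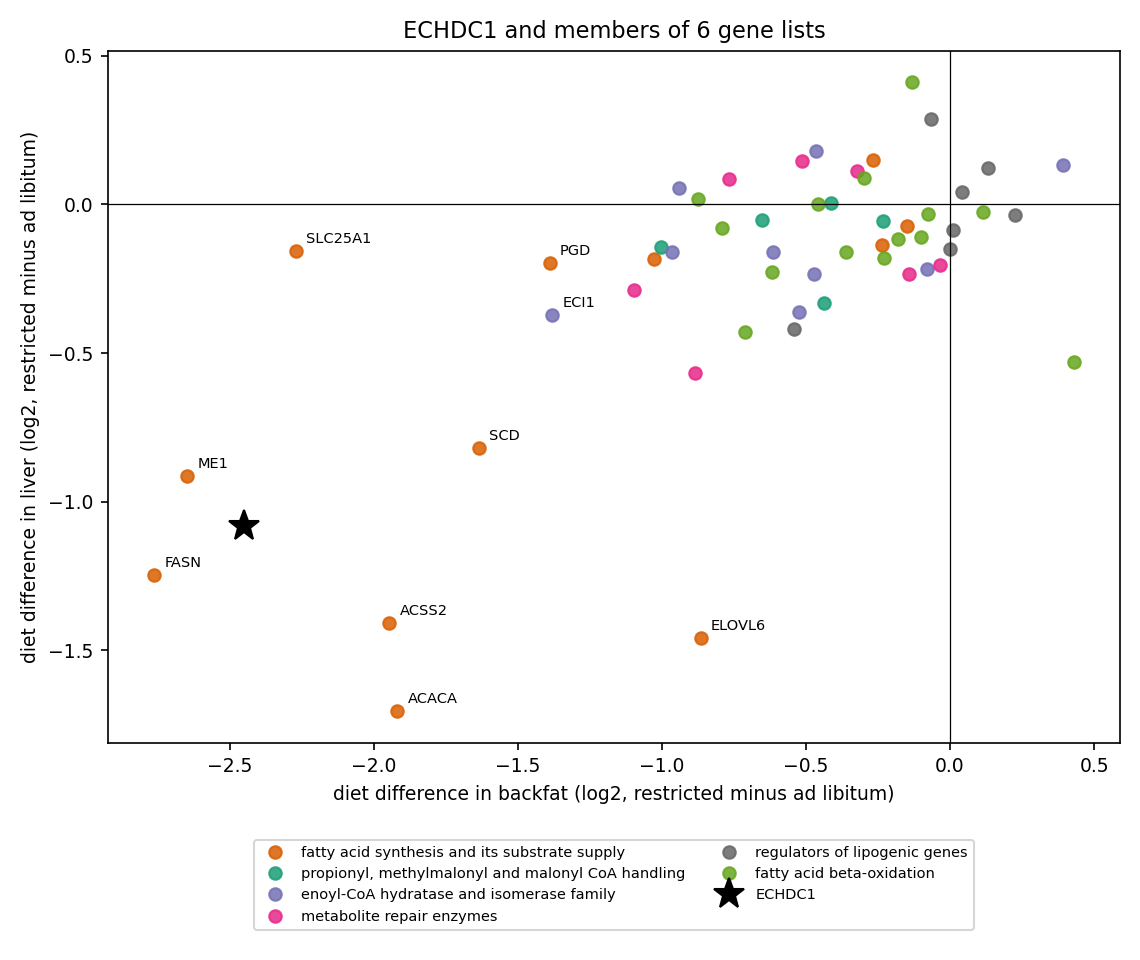
Diet difference (log2, restricted minus ad libitum) in liver against that in backfat for the genes of 6 lists tested in both tissues, coloured by list, with ECHDC1 as a star. ECHDC1, which was chosen by these differences, sits at -2.45 and -1.08, near FASN (-2.76 and -1.25) and ME1 (-2.65 and -0.91). Other fatty acid synthesis genes lie elsewhere, such as SLC25A1 (-2.27 and -0.16) and PGD (-1.39 and -0.20). Most genes of the other lists lie within 1 unit of 0 in backfat and near 0 in liver.

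Few named probe sets were 2-fold lower or more in both tissues. Of 7115 named probe sets tested in both, 11, of 8 genes, had a level at least 2-fold lower in each. The probe set of ECHDC1, which was chosen by these differences, was one of them. The others were FASN, ACSS2, ELOVL6 and ACACA of fatty acid synthesis, PNPLA3, a lipid droplet protein of lipogenic tissues (-1.68 and -1.38), and CCNB1 (-2.12 and -1.03) and TOP2A (-1.63 and -1.05) of the cell cycle. In liver PNPLA3 (limma adjusted p = 0.401), CCNB1 (limma adjusted p = 0.0933), ACACA and the ELOVL6 probe sets counted here did not pass the test, while TOP2A did (limma adjusted p = 0.00574).

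Of the genes next to ECHDC1 on the chromosome, 1 was measured by name. On the Sscrofa11.1 assembly ECHDC1 lies between KIAA0408 and SOGA3 on one side and RNF146, a ubiquitin ligase, and the long noncoding RNA LOC110260186 on the other. RNF146 is the one with a named probe set, and it had 0.15 (SE 0.0731, limma adjusted p = 0.127) in backfat and 0.08 (SE 0.0803, limma adjusted p = 0.77) in liver.

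The genes most like ECHDC1 over the 20 arrays of a tissue are given by Pearson r as a description, since the arrays share the diets and form a cluster for each of them. In backfat they were ECI1 (0.978), PDHB, a subunit of pyruvate dehydrogenase (0.977), ME1 (0.975), SDHC, a subunit of succinate dehydrogenase (0.968), and LOC100525869 (0.967). Of 5551 named genes 101 had r above 0.9 there, and the median r was -0.05. In liver they were ACSS2 (0.903), TSC22D3 (0.874), KLF13, a transcription factor (0.826), USP2, a deubiquitinase (0.817), and ME1 (0.813). Only 1 of 5722 genes exceeded 0.9 in liver. ME1 was thus among the 5 genes most like ECHDC1 in both tissues.

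With the group means removed, the differences between diets and lines no longer enter. The highest r of these deviations in backfat belonged to MRPS15, of the mitochondrial ribosome (0.908), ATP6V0E1, of the vacuolar proton pump (0.903), UQCR10, of respiratory complex III (0.894), PDHB (0.881) and CUNH14orf2 (0.872). In liver it belonged to ACSS2 (0.757), PRKAA1, a catalytic subunit of AMP-activated kinase (0.722), FXYD6 (0.709), HGSNAT (0.698) and SLC25A1 (0.695). Over 5551 named genes in backfat the median r of deviations was -0.008, and 2 genes exceeded 0.9. Over 5722 in liver the median was 0.02, and 0 exceeded 0.9. In backfat each r named above exceeded that of ME1, 0.834, which is given below. In liver each exceeded those of the lipogenic genes tested below, of which SCD had the highest, at 0.625. All arrays of a tissue share their scaling and, in part, their RNA quality, and no p is attached to the r values of this paragraph.

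Whether ECHDC1 followed lipogenic genes from pig to pig inside the groups was tested for the 5 of 9 intended partners that were measured, which makes 10 pairs over both tissues. In backfat the deviations of ECHDC1 followed those of ME1, with r = 0.834 (n = 20, permutation p = 7e-05, adjusted p = 7e-04) and Spearman rho = 0.771 (permutation adjusted p = 0.0027). The value was 0.802 without the 2 arrays farthest from the median ECHDC1 deviation, and 0.718 without the low array at 2107 (permutation adjusted p = 0.0073). For FASN in backfat r was 0.387 (permutation p = 0.0118, adjusted p = 0.0263) and rho 0.415 (permutation p = 0.0694, adjusted p = 0.122), with r = 0.456 without the 2 farthest arrays. For SCD r was 0.328 (permutation p = 0.00913, adjusted p = 0.0263) and rho 0.362 (permutation p = 0.073, adjusted p = 0.122), with r = 0.426 without the 2 farthest. Both therefore passed by r and not by rho. They did not pass without the array at 2107, at r = 0.378 for FASN (permutation adjusted p = 0.104) and 0.407 for SCD (permutation adjusted p = 0.0619), or without the high RFI restricted array numbered 5, at 0.410 and 0.340 (permutation adjusted p = 0.0829 for each), and SCD also not without the low RFI restricted array numbered 2, at 0.245 (permutation adjusted p = 0.0555).

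In liver the deviations of ECHDC1 followed those of FASN, with r = 0.622 (n = 20, permutation p = 0.00238, adjusted p = 0.0119), rho = 0.645 (permutation p = 0.00263, adjusted p = 0.0131) and r = 0.561 without the 2 farthest arrays. This relation kept its side of the threshold without each array in turn, at 0.549 to 0.713. SCD had r = 0.625 (permutation p = 0.0132, adjusted p = 0.0263), rho = 0.611 (permutation p = 0.0147, adjusted p = 0.0367) and 0.655 without the 2 farthest. It missed the threshold without the high RFI restricted array numbered 1 (0.516, permutation adjusted p = 0.108) or numbered 5 (0.556, permutation adjusted p = 0.082), the low RFI restricted array numbered 3 (0.591, permutation adjusted p = 0.0549) or the high RFI ad libitum array numbered 3 (0.599, permutation adjusted p = 0.0514). ME1 had r = 0.543 (permutation p = 0.0288, adjusted p = 0.048), rho = 0.589 (permutation p = 0.0147, adjusted p = 0.0367) and 0.492 without the 2 farthest. The ME1 relation in liver missed the threshold when any of 15 of the 20 arrays was left out, down to 0.403 (permutation adjusted p = 0.193) without the high RFI restricted array numbered 1.

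ACACA and SREBF1 showed no detectable relation in the unadjusted deviations. For ACACA r was 0.199 in backfat (rho -0.02, permutation adjusted p = 0.665 for r and 0.951 for rho) and -0.07 in liver (rho -0.08, permutation adjusted p = 0.842 and 0.905). For SREBF1 r was 0.02 in backfat (rho 0.05, permutation adjusted p = 0.926 and 0.951) and 0.214 in liver (rho 0.128, permutation adjusted p = 0.607 and 0.901). Without the 2 arrays farthest in ECHDC1, r for ACACA was -0.06 in backfat and -0.07 in liver, and for SREBF1 it was 0.248 and 0.272.

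The ECHDC1 deviations were set against those of the control ratios, and none of the 4 relations passed after adjustment. The deviation of ECHDC1 in backfat had r = -0.32 with that of the GAPDH ratio (n = 20, permutation p = 0.152, adjusted p = 0.304; rho -0.35, permutation p = 0.171, adjusted p = 0.341) and r = 0.517 with that of the actin ratio (permutation p = 0.0259, adjusted p = 0.104; rho 0.502, permutation p = 0.0319, adjusted p = 0.128). Without the 2 arrays farthest in the ratio these values were -0.75 and 0.363. In liver they were 0.07 (rho 0.03, permutation adjusted p = 0.807 and 0.909) and -0.19 (rho -0.19, permutation adjusted p = 0.613 and 0.605), and 0.07 and 0.01 without the 2 farthest; the adjustment is over 4 relations. With both ratios as covariates r with ME1 in backfat was 0.812 (permutation adjusted p = 0.0031) and r with FASN in liver 0.614 (permutation adjusted p = 0.0195). Under the same covariates SCD in backfat dropped to 0.133 (permutation adjusted p = 0.579), whereas ACACA reached 0.631 (permutation adjusted p = 0.0201) and SREBF1 0.657 (permutation adjusted p = 0.00867) there. The within-group relation of ECHDC1 with ME1 in backfat and that with FASN in liver thus had similar values with and without the covariates, and those with SCD, ACACA and SREBF1 in backfat did not.

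**Figure D4:**
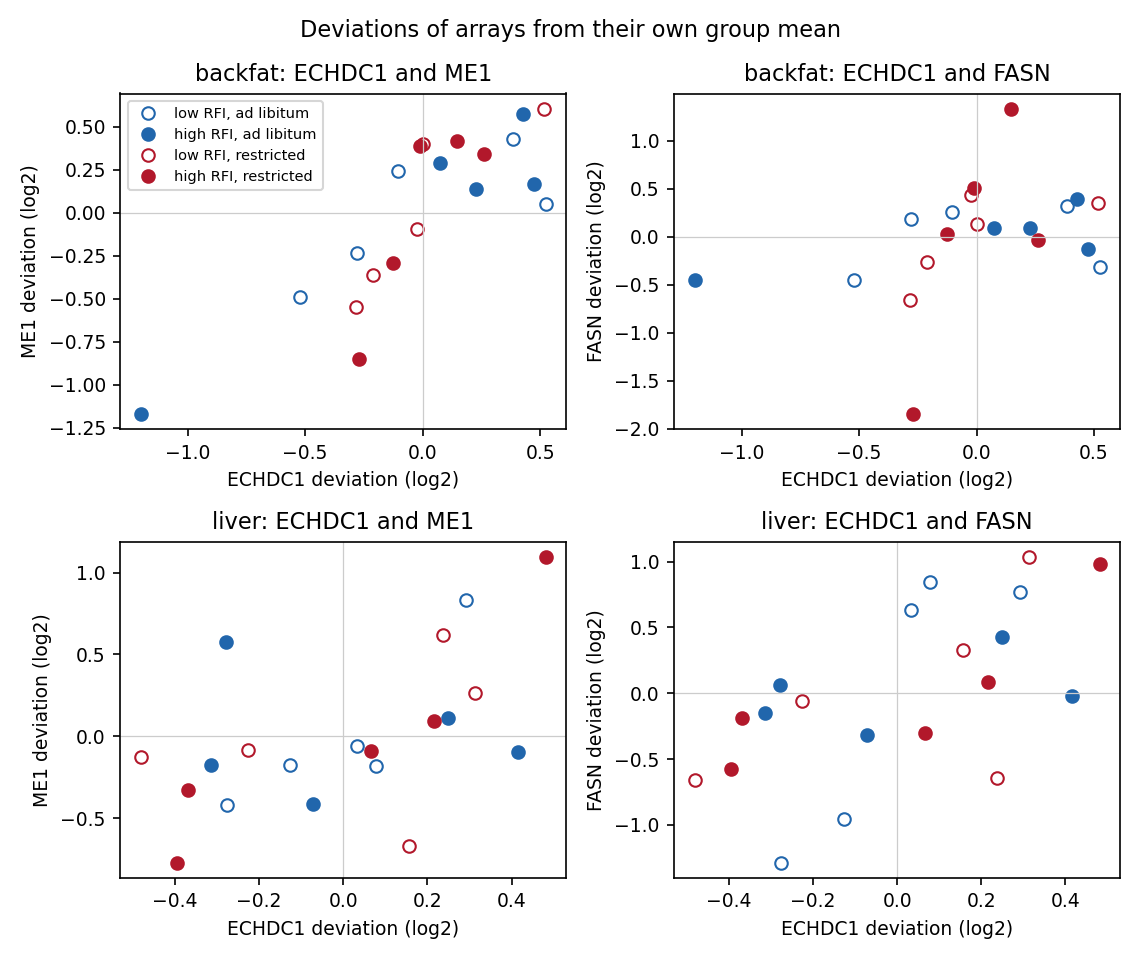
Deviations of ME1 and FASN from their group means against those of ECHDC1 (log2), 20 arrays in each panel, with filled symbols for high RFI, blue for ad libitum and red for restricted. In backfat the ME1 panel shows the closest relation (r = 0.834), with the array at 2107 at the far left, and in liver the FASN panel has r = 0.622.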

How the data were processed

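RNA of 20 liver and 20 backfat samples was hybridised to 1-colour Affymetrix porcine arrays. Each deposited value is the linear intensity of a probe set, and the submitters' processing notes name affy and MAS5, with no version and no role for either. The scaling by the authors was read from the values: the trimmed means of all arrays agree closely. Of 24123 probe sets 124 controls were left out, and the platform annotation gave 1 symbol to 10069. No coordinates or probe-level file were used here; the order of neighbouring genes came from the RefSeq genes of Sscrofa11.1. No counts exist for arrays, so the number of arrays limits the precision.

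Intensities were log2-transformed without an offset. In each tissue a probe set was tested if it exceeded the 40th percentile of its array on at least 5 of 20 arrays (15498 in backfat, 15677 in liver). Group means were fitted with limma 3.58.1 in R 4.3.3 (eBayes with an intensity trend), p-values were adjusted by Benjamini-Hochberg over all probe sets tested, and the threshold was 0.05. Tissues were compared in 1 fit of all 40 arrays over 14001 probe sets, taking arrays as independent; differences within a diet were not tested. Within-group relations used deviations from group means, 100000 permutations within groups, two-sided, and adjustment over 10 pairs; numpy 2.4.6, scipy 1.17.1 and pandas 2.3.3 in Python 3.11.15 were used. On simulated data, changes of 0.5 and 1 were recovered in 45% and 89% of cases for the diet difference in backfat and in 40% and 77% in liver. The simulation changed 100 probe sets by each size and drew the noise of each probe set independently. Of its calls, 4 of 138 in backfat and 7 of 124 in liver were false. A far larger share of probe sets was called in the measured backfat data, so recovery there may differ.

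ECHDC1, the lists (87 symbols, some of them older names of the same gene) and the markers were chosen with earlier results of these data known. Genes were named by a rule: up to 4 of each list with the smallest p for diet in each tissue, the partners of the within-group relations, the 5 genes most like ECHDC1 by each measure, and its neighbours on the chromosome. HADHA and CPT1B, the genes next to ECHDC1 by size of difference, and the other genes at least 2-fold lower in both tissues were named after their values were seen. No 2 arrays held identical values. Same-numbered arrays deviated together with a correlation over 0.1 in 23 of 30 pairs in backfat and 26 of 30 in liver. Not every pair was over 0.1, so the number as a block stands as an alternative. Arrays of the same number still resembled each other more than others did. In the fit of both tissues the block was the line, diet and number together, which joins liver and backfat arrays.

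Alternatives were quantile normalization, no filter, the 60th percentile as filter, an offset (the 20th percentile), each array left out, the replicate number as a block, a fit with no intensity trend, arrays numbered 1 and 2 or 3 to 5 alone, the control ratios as covariates and the probe set with the smallest p. The tissue difference averaged over diets, the marker covariates, the ratios as covariates of the within-group relations, and leaving arrays out of list counts and relations were added after seeing the data.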

Additional observations from a re-analysis of the deposited data

Results flagged for a closer look

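In backfat of high RFI pigs fed ad libitum, replicate 3 had an ECHDC1 intensity of 2106.73, far from the other 4 arrays of its group, at 5091 to 6716. On the log2 scale its gap to the nearest array was 0.761 of the group's range, above Dixon's 95% critical value of 0.71, a limit that about 1 in 20 groups passes by chance. In this array ME1 lay 1.17 below its group mean (a deviation of -1.17) and FASN at -0.45, against -1.20 for ECHDC1. Its GAPDH 3' to 5' log2 ratio was 1.81, against 0.919 to 1.24 in the others, and the part of RNA quality in its value was not tested. Without it the ECHDC1 diet difference in backfat was -2.60 and the ad libitum tissue difference 1.07.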

How the results depend on the processing

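The ECHDC1 diet difference kept its direction under every alternative run, at -2.60 to -2.38 in backfat and -1.14 to -1.02 in liver with arrays left out, and at -2.50 to -2.21 and -1.14 to -1.06 otherwise. The tissue difference kept its direction too, at 0.855 to 1.07 with arrays left out and 0.79 to 1.11 otherwise with feed ad libitum, and at -0.51 to -0.39 and -0.60 to -0.29 under restriction. Averaged over diets it was 0.20 to 0.31 with arrays left out and 0.12 to 0.41 otherwise, and it passed without any of 4 arrays. It also passed with a block (0.24, limma adjusted p = 0.0345). That block joined the liver and backfat arrays of the same line, diet and number, a pairing that the labels do not give. The backfat interaction, near 0, changed sign with quantile normalization (-0.012), the control ratios (-0.15), numbers 3 to 5 (-0.22) and 10 of 20 left-out arrays (-0.12 to 0.31), and the backfat line difference with numbers 3 to 5 (0.039); none passed.

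List genes lower in backfat numbered 29 to 32 with arrays left out and 13 in numbers 1 and 2 (30 in the report). Those higher in backfat numbered 0 to 3 with arrays left out, 0 in numbers 1 and 2 and 0 with the control ratios (3 in the report). Those lower in liver numbered 1 to 5 with arrays left out, 2 without the trend, 0 in numbers 1 and 2 and 8 with the replicate block (4 in the report); the fatty acid synthesis count in liver was 1 to 4 with arrays left out, 2 without the trend and 0 in numbers 1 and 2. The replicate number as a block gave 34 lower in backfat, adding ACSS3, ECI2, ELOVL1 and INSIG1; in liver it added ECI1 of the enoyl-CoA hydratase family, NIT1 and NAXD of the repair enzymes and DECR1 of beta-oxidation. As a measure of likeness by number, 12 of 20 backfat and 13 of 20 liver arrays correlated best with an array of their own number.

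With the replicate block, r with FASN and SCD in backfat was 0.427 and 0.413 (permutation adjusted p = 0.0885 and 0.0947). With the number sets as a block, SCD in backfat (0.285) and ME1 in liver (0.693) missed the threshold (permutation adjusted p = 0.055 for both). So did ME1 in liver with quantile normalization (0.540, permutation adjusted p = 0.0513), and SCD in backfat with the control ratios (0.133), which put ACACA (0.631) and SREBF1 (0.657) past it. With arrays left out r ranged, in backfat, over 0.351 to 0.458 for FASN, 0.245 to 0.407 for SCD, -0.24 to 0.333 for ACACA and -0.15 to 0.184 for SREBF1, and in liver over 0.403 to 0.671 for ME1, 0.516 to 0.729 for SCD and -0.22 to 0.124 for ACACA. The cause of these changes was not tested. Backfat ME1 and liver FASN kept their side under every alternative run.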
